A study of Mus musculus with 3 samples.

Results

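The solute carrier (Slc) genes encode membrane proteins that move amino acids, sugars, ions, metals, nucleotides and vitamins into and out of cells and organelles. The genes described here were the gene models named Slc followed by a digit that had a mean level of at least 0.5 RPKM (reads scaled to model length and library total) over 3 libraries and a model of at least 300 bp. Of 355 such models, 6 were left out by name: Slc2a1, Slc16a1, Slc16a3, Slc7a11, Slc3a2 and Slc4a4. Of the other 349 models, 97 met the minimum, out of 22658 gene models of all kinds. The remaining 252 were under it, and 38 of them had no read in any library. The mean level chose these 97 genes, so their levels are a description and support nothing.

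The libraries came from NB490, a mouse pancreatic cancer cell line selected with puromycin for stable carriage of a short hairpin RNA (shRNA) that targets PDX1, a pancreatic transcription factor, and is switched on by doxycycline. There was 1 sample per condition: uninduced (0 h of doxycycline), 48 h of doxycycline, and an outgrowth of over 3 weeks under doxycycline (the grown-out library; "after outgrowth" below). The study addressed PDX1 in pancreatic ductal adenocarcinoma. Cells were given 2 mM bromouridine for 30 min, the labelled RNA was captured and sequenced (Bru-seq), and the reads report RNA made in that window. All 3 libraries carry the shRNA construct in 1 cell line, and a doxycycline control lacking the construct was not analysed here, so the effects of the drug, the shRNA and time in culture cannot be told apart. With 1 library per condition no p-value could be computed, and each difference compares those libraries, with no replicate check.

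A solute carrier usually moves its substrate along a gradient, by facilitated diffusion, by exchange or by coupling to sodium or protons, in contrast to the ATP-driven pumps. Plasma membrane members feed amino acids and ions to the cell, the Slc25 family links the cytosol to the mitochondrial matrix, the Slc35 family loads nucleotide sugars into the Golgi and endoplasmic reticulum, and the Slc30 and Slc39 families move zinc out of and into the cytosol. Pancreatic tumour cells are known for a high use of amino acids. Classes were set by Slc family number and named for the family's main substrate, so single members can differ from the name. In classes by substrate, the 97 genes were 26 mitochondrial carriers, 15 nucleotide sugar carriers, 13 carriers of inorganic ions, 12 of amino acids, 12 of zinc, 6 of organic acids, bases and peptides, 5 of vitamins, nucleosides and lipids, 3 of other metals and haem, and 2 of sugars. The other 3, Slc7a6os, Slc4a1ap and Slc9a3r1, carry the Slc name but encode no carrier.

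Promoters are shown for 8 of the genes. Of these, 5 are the genes that were higher at 48 h and held an E-box (defined below), and the others are for comparison. RefSeq's promoter table (GRCm38.p6, 250 bases before to 50 after a start) held 73 of the 97 genes. The E-box CACGTG, the palindrome bound by basic helix-loop-helix factors such as MYC, USF and the lysosomal regulator TFEB, was found in 15 of these 73, or 20.5%. It was found in 12.3% of 5734 measured genes with a promoter in the table and in 7.15% of all 32851 promoters. Of the 17 genes that were higher at 48 h by the interval of their ratio, 14 had a promoter in the table and 5 of those held an E-box. They were the lysosomal amino acid carriers Slc38a7 and Slc36a1 and the mitochondrial carriers Slc25a13, Slc25a33 and Slc25a36. The share was 35.7% among the 14 higher genes, 17.9% among the 28 within counting error and 16.1% among the 31 lower genes. Among the measured genes it was 12.5%, 12.2% and 12.2% in the same order. In the other comparisons the E-box share was larger among lower genes. After outgrowth it was 17.1% of the 35 genes higher than in the uninduced library and 29.4% of the 17 lower genes. Against 48 h it was 20% of the 35 genes higher after outgrowth and 33.3% of the 15 lower genes. At 48 h the metal response element core, given below, was in 6 of the 14 higher and 20 of the 31 lower genes. The E-box split at 48 h was thus among several looked at. These are small counts without a test, and a match is only a run of letters.

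The 250 bases before the start of those 5 genes are printed 5′ to 3′ on the gene's strand, with matches to the 6 motifs searched (both strands) in capitals. They lie at chr8:95853492-95853741, minus strand; chr11:55204090-55204339, plus strand; chr6:6217174-6217423, minus strand; chr4:149774268-149774517, minus strand; and chr9:97111042-97111291, minus strand, in the same order as the lines. The 250 bases of Slc25a13 hold an AP-1 match, TGAGTCA, that overlaps the E-box, and those of Slc38a7 hold a separate AP-1 match. The 250 bases of Slc25a36 also hold a cAMP response element, TGACGTCA. Slc25a13 further holds a match to the metal response element core given below, in a region apart from the other 2. Slc36a1 has an additional E-box that spans its start and is not in capitals.
Slc38a7: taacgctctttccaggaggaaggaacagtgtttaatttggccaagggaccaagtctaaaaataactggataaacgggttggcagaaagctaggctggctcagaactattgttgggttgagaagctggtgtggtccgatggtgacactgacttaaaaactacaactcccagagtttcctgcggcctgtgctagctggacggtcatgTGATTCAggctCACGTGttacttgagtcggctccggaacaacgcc
Slc36a1: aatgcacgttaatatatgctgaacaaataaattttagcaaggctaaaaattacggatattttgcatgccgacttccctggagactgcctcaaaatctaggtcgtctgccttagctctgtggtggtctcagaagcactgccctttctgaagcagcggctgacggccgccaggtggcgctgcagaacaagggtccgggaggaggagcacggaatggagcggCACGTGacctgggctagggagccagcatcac
Slc25a13: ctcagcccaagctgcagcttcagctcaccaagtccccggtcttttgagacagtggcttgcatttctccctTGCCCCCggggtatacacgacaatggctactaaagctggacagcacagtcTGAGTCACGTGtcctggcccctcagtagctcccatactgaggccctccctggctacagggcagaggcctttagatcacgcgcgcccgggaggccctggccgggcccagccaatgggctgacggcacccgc
Slc25a33: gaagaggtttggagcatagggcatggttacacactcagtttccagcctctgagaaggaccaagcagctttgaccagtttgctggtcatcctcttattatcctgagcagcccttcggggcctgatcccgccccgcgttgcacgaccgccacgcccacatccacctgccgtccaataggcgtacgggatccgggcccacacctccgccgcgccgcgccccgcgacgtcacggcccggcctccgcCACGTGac
Slc25a36: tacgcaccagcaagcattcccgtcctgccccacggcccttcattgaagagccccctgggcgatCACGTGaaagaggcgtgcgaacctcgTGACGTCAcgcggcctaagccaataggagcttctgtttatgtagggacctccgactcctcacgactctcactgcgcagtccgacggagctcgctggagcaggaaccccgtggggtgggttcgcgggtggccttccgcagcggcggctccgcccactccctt

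For comparison, the 250 bases are shown for Slc38a2, the gene with the highest level and lower at 48 h, for Slc23a2, with a marked difference between the doxycycline libraries, and for Slc30a4, a zinc carrier that was lower in both of them. They lie at chr15:96699729-96699978, minus strand; chr2:132145321-132145570, minus strand; and chr2:122702664-122702913, minus strand. The other motifs searched were the amino acid response element TGATGNAA, the metal response element core TGCNCNC, the AP-1 site TGANTCA and the core of a sterol element, TCACNCCAC. Slc38a2 held none of the 6 in this window. Slc23a2 and Slc30a4 held no E-box either, but 5 of the 31 genes lower at 48 h with a promoter in the table did. They were Slc20a1, Slc35a5, Slc25a1, Slc12a7 and Slc33a1. The printed promoters were picked, so they do not show how E-boxes divide between higher and lower genes. Slc23a2 was the gene among the 73 with the sterol element core, which 1.27% of measured genes and 1.24% of all promoters hold. Its 250 bases also held 2 copies of the metal response element core. Slc30a4 held 5 copies of that core, 4 in capitals and 1 that spans the start. That core is short: it was in 7 of 10 zinc carrier promoters, in 63.0% of the 73, in 64.3% of the measured genes and in 51.0% of all promoters. The amino acid response element was in 1 of the 73, Slc1a4 (1.37%, beside 2.48% of measured genes and 3.97% of all promoters). The cAMP response element was in 3 (4.11%, beside 3.99% and 1.79%) and the AP-1 site in 5 (6.85%, beside 5.34% and 7.81%). A gene counted when any of its promoters held a match, whereas the share of all promoters counts each promoter.
Slc38a2: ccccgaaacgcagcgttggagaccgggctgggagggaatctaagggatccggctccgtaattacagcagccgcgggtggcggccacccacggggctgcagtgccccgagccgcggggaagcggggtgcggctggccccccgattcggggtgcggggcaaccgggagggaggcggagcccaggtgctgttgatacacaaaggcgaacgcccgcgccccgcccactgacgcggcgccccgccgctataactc
Slc23a2: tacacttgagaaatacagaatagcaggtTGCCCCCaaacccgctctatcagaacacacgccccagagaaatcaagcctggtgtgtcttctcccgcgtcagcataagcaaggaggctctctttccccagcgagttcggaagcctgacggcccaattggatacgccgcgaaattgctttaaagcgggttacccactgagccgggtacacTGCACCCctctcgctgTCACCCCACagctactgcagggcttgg
Slc30a4: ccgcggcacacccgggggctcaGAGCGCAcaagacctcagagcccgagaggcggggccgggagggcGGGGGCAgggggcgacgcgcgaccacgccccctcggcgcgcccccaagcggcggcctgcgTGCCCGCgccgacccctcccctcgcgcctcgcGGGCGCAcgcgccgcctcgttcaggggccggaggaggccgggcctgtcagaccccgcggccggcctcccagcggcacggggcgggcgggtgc

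The library totals behind the RPKM values were 51006774 reads (uninduced), 48418864 (48 h) and 41632296 (grown-out), of which gene models held 78.1% to 79.4%. The median number of reads per solute carrier gene was 2037, 1823.5 and 1737.6, and 6 genes had fewer than 100 reads in some library. Nascent RNA of Pdx1 was at 1.59, 1.05 and 1.42 RPKM; an shRNA acts on finished RNA, so this does not check the knockdown. Of 7 ductal epithelial markers 6 were measured, with a summed level of 153.4, 87.8 and 84.3 RPKM. Most of that difference lay in Spp1, at 98.6, 40 and 32.3 RPKM; without it the sum was 54.8, 47.8 and 52.04. Of the 6 measured, 1 was higher and 5 lower at 48 h (30.1% and 30% of measured genes). After outgrowth 3 were higher and 2 lower (33.6% and 29.5%). No acinar, endocrine, endothelial or fibroblast marker reached 0.5 RPKM (summed level of each list at most 0.229), and 3 of 6 acinar, 5 of 6 endocrine and 1 of 5 fibroblast markers were at 0 reads in every library. The 4 immune markers summed to 2.41, 1.37 and 1.37 RPKM, 2 of them being measured and none at 0. The part of these markers in the results below was not tested. In 8 of the 97 genes the model overlaps 1 on the opposite strand, and since the labels limit strand-specific reads to certain samples, their values are uncertain. Among them are Slc48a1, Slc35a4, Slc25a2, Slc25a25, Slc35e2, Slc25a26 and Slc20a2. For 21 of the 97 genes another model ends within 10 kb upstream on the same strand, and only some of these are named below. Read-through from such models was not tested.

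Levels of the 97 genes spanned a wide range. Together they held 0.818% of gene model reads in the uninduced library, 0.768% at 48 h and 0.864% after outgrowth. Slc38a2, the sodium-coupled carrier of small neutral amino acids, alone made up 14.1%, 10.6% and 13.4% of their summed RPKM. The 10 highest made up 42.0%, 40.9% and 43%. After Slc38a2, at a mean of 27.4 RPKM, came Slc25a5 (19.2), Slc25a3 (8.78), Slc25a4 (6.98), Slc7a6 (6.57) and Slc25a30 (4.997). The median gene was at 1.25, 1.21 and 1.34 RPKM in the 3 libraries, below the medians of the 7915 measured genes (1.64, 1.60 and 1.64), so these are mostly moderate to low levels. Just inside the minimum were Slc22a5, Slc38a7 and Slc25a1 at 0.532, 0.539 and 0.553 RPKM, and just outside were Slc19a1, Slc50a1 and Slc30a1 at 0.471, 0.469 and 0.459. In 6 genes the level was under 0.5 RPKM in at least 1 library. Among them, Slc38a7 (48 h), Slc25a48 (grown-out) and Slc25a1 (uninduced) met the minimum only through the library named, in which each was highest.

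**Figure D1:**
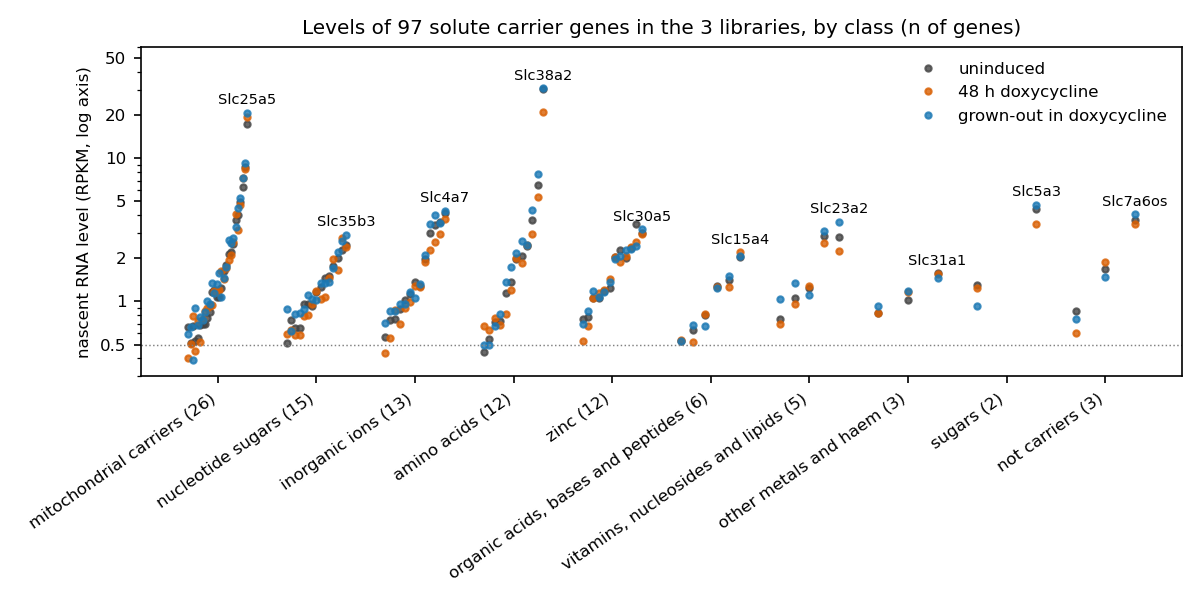
Nascent RNA level (RPKM, log axis) of each of the 97 genes in the 3 libraries, grouped by class and ordered by mean level within a class; each point is 1 library and the dotted line is at 0.5 RPKM. Slc38a2 and Slc25a5 stand above the rest, with a mean of 27.4 and 19.2 RPKM, and most genes lie between 0.5 and 5 RPKM.

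Classes differed in how many of their models reached the minimum. Passing most often were 15 of 23 nucleotide sugar carriers, 26 of 44 mitochondrial carriers and 12 of 24 zinc carriers. Passing least often were 2 of 34 sugar carriers and 6 of 71 carriers of organic acids, bases and peptides. Between these were 13 of 52 ion carriers, 12 of 59 amino acid carriers, 5 of 28 carriers of vitamins, nucleosides and lipids and 3 of 9 of other metals and haem. The 6 genes left out by name are not in these counts, although 5 of them met the minimum. By family they belong to the sugar, organic acid, amino acid and ion classes, whose counts are lower for it.

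After 48 h of doxycycline more solute carrier genes were lower than higher, by small amounts. Of the 97, 44 were lower and 17 higher by a ratio whose exact conditional binomial 95% interval excluded no change (beyond counting error). Of the 7915 measured genes, 30% were lower and 30.1% higher by that rule, against 45.4% and 17.5% of the 97. The median log2 ratio, taken of RPKM plus 0.05, was -0.064 over the 97 genes and 0.0029 over the measured genes. None of the 97 was past 2-fold, which 0.72% of measured genes were downwards and 0.0253% upwards. Only Slc25a1, the mitochondrial citrate carrier, was past 1.5-fold on the log2 scale, downwards, against 3.27% of measured genes lower and 0.379% higher.

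After outgrowth the balance lay the other way. Against the uninduced library 50 of the 97 genes were higher and 19 lower beyond counting error, where 33.6% of measured genes were higher and 29.5% lower. The median log2 ratio was 0.11, beside 0.0082 over the measured genes. Past 1.5-fold were Slc25a48 and Slc35b2 upwards (1.07% of measured genes) and Slc25a2 downwards (2.93%), and none of the 97 was past 2-fold (0.164% higher and 0.708% lower). Both doxycycline comparisons use the same uninduced library, so a high or low reading there enters both. The uninduced value was the lowest of the 3 for 23 of the 97 genes (23.7%, beside 30.4% of measured genes) and the highest for 18 (18.6%, beside 28.1%).

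Between the doxycycline libraries themselves, 50 of the 97 genes were higher after outgrowth than at 48 h and 17 lower, beside 35.6% and 32% of measured genes. The median log2 ratio was 0.14, against 0.0090 over the measured genes. The 48 h library gave the lowest of the 3 values for 52 of the 97 genes (53.6%, beside 34.8% of measured genes), and the grown-out library gave the highest for 56 (57.7%, beside 38.1%). Past 1.5-fold were 7 genes upwards (3.59% of measured genes) and Slc25a2 downwards (2.25%), and none was past 2-fold on that scale (0.708% and 0.316%). The 7 were Slc25a48, Slc1a4, Slc23a2, Slc4a2, Slc12a2, Slc20a1 and Slc9a5. Genes with models under 30 kb had a median log2 ratio of 0.19 (54 genes) and longer ones 0.038 (43 genes), where the measured genes had 0.016 and 4.2e-05; the part of length in these results was not tested.

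**Figure D2:**
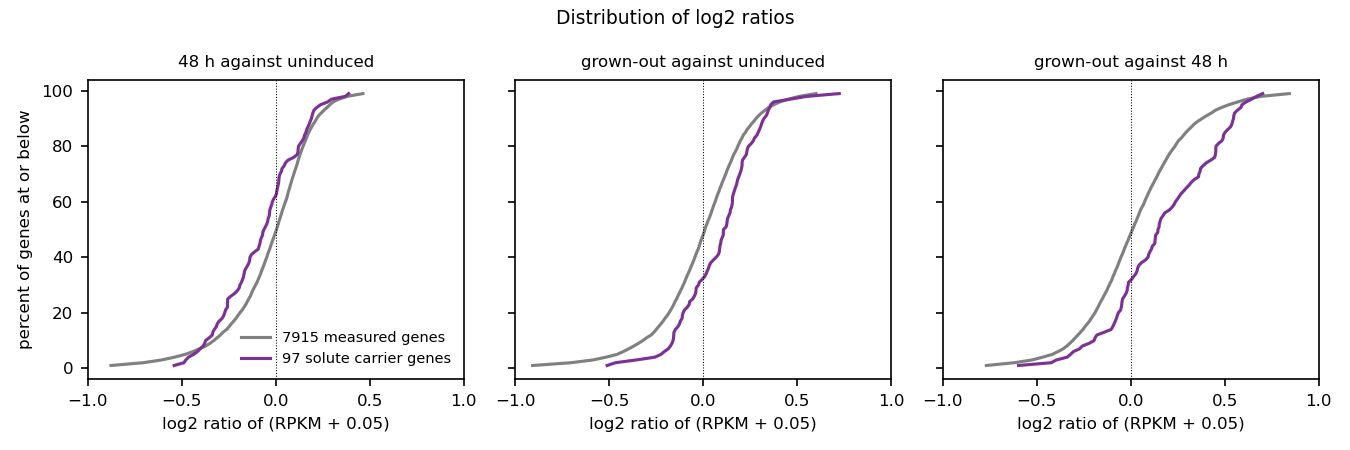
Cumulative distribution of log2 ratios of (RPKM + 0.05) for the 97 solute carrier genes and the 7915 measured genes (y axis: percent of genes at or below a ratio, drawn at whole percentiles). The curve of the solute carrier genes crosses 50% at -0.064 for 48 h against uninduced, at 0.11 for grown-out against uninduced and at 0.14 for grown-out against 48 h, beside 0.0029, 0.0082 and 0.0090 for the measured genes.

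Among the 12 amino acid carriers, several plasma membrane importers were lower at 48 h and 7 of the 12 were above the uninduced level after outgrowth, while the lysosomal carriers Slc38a7 and Slc36a1 were higher at 48 h. By counts, 6 were lower and 3 higher at 48 h (30% and 30.1% of measured genes). After outgrowth 7 were higher and 1 lower (33.6% and 29.5%). The class medians (log2) were -0.13 at 48 h and 0.16 after outgrowth. The level of Slc38a2 in RPKM, with exact 95% Poisson intervals, was 30.4 uninduced (29.97 to 30.8), 20.9 at 48 h (20.6 to 21.3) and 30.9 after outgrowth (30.4 to 31.4). The 48 h library was the low one, 1.45-fold below the uninduced library (1.42 to 1.48), and the grown-out value was within counting error of the uninduced one, at 1.02 times it (0.995 to 1.04). Under DESeq2's size factors this last ratio was 1.05, outside that interval. Its paralog Slc38a1, 44479 bp away on the same strand of chromosome 15, did not show this dip, at 2.44, 2.46 and 2.49 RPKM.

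The carriers that pair with a heavy chain or move cationic amino acids had the same order of libraries, lowest at 48 h and highest after outgrowth. Slc7a6, a light chain that exchanges cationic for neutral amino acids, was at 6.52, 5.37 and 7.82 RPKM, 1.22-fold lower at 48 h (1.18 to 1.25) and 1.198-fold higher after outgrowth (1.16 to 1.23) than in the uninduced library. Slc7a1, the main cationic amino acid carrier, was at 2.09, 1.86 and 2.66 RPKM. Slc7a5, the light chain of the large neutral amino acid exchanger, was at 1.36, 1.21 and 1.75 RPKM, 1.13-fold lower at 48 h (1.06 to 1.21) and 1.29-fold higher after outgrowth (1.21 to 1.37). The heavy chain of these exchangers is Slc3a2, which the rule leaves out; it was at 7.54, 5.94 and 8.32 RPKM.

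Slc1a4, a carrier of alanine, serine and cysteine, was at 1.15, 0.823 and 1.36 RPKM. It was 1.401-fold lower at 48 h than in the uninduced library (1.30 to 1.51), and its grown-out value was 1.65-fold above that at 48 h (1.53 to 1.78). Slc6a6, the taurine carrier, was at 3.70, 2.96 and 4.36 RPKM, 1.25-fold lower at 48 h (1.22 to 1.28) and 1.18-fold higher after outgrowth (1.15 to 1.21). Slc6a18, a carrier known from kidney, was at 1.98, 2.00 and 2.19 RPKM. Each of these 3 values rests on at least 1216 reads in every library.

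The lysosomal amino acid carriers were highest at 48 h. Slc38a7, which exports glutamine from lysosomes, was at 0.443, 0.677 and 0.498 RPKM, and its 48 h value was 1.53-fold above the uninduced one (1.34 to 1.74), the largest upward ratio of the 97 in that comparison. On the log2 scale with 0.05 added this is 0.56, short of 1.5-fold. Slc38a7 was under 0.5 RPKM in the uninduced and grown-out libraries. It met the minimum only through its 48 h level, so its rank is a description and supports nothing. Slc36a1, a proton-coupled exporter of small amino acids from lysosomes, was at 0.548, 0.627 and 0.492 RPKM, 1.14-fold higher at 48 h (1.04 to 1.25) and 1.11-fold lower after outgrowth (1.01 to 1.23). Slc15a4, a lysosomal carrier of histidine and peptides counted with the organic acid class, was at 2.04, 2.22 and 2.07 RPKM, 1.08-fold higher at 48 h (1.02 to 1.15). Slc17a5, the lysosomal exporter of sialic acid, was at 0.803, 0.814 and 0.671 RPKM, within counting error of the uninduced level at 48 h. The third amino acid carrier higher at 48 h was Slc38a6, at 0.714, 0.767 and 0.676 RPKM. Slc38a10 was at 0.728, 0.681 and 0.822 RPKM, 1.13-fold higher after outgrowth (1.06 to 1.21).

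**Figure D3:**
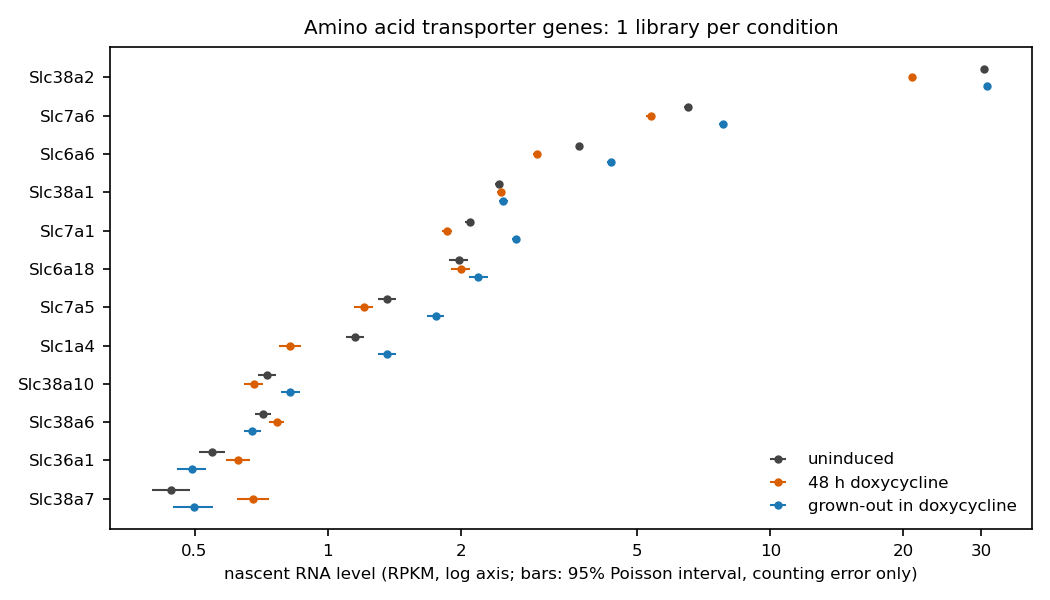
Nascent RNA level (RPKM, log axis) of the 12 amino acid carrier genes in each library, with exact 95% Poisson intervals that cover counting error only. Slc38a2, Slc7a6, Slc6a6, Slc7a1, Slc7a5 and Slc1a4 have their lowest point at 48 h, and Slc38a7 and Slc36a1 their highest.

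Genes of the amino acid response, the program that the factor ATF4 runs when amino acids are short and that includes several of these carriers among its known targets, were listed for comparison. Of 10 genes 9 were measured. Beyond counting error 3 were higher and 6 lower at 48 h (30.1% and 30% of measured genes). After outgrowth 4 were higher and 2 lower (33.6% and 29.5%). Atf4 was at 9.70, 7.53 and 9.92 RPKM. Like Slc38a2, it was lower at 48 h and within counting error of the uninduced level after outgrowth. Asns, asparagine synthetase, was at 3.87, 4.42 and 5.00 RPKM and did not share the 48 h dip. Ddit3 and Trib3 had the pattern of Atf4, and Psat1 and Phgdh were lower at 48 h and higher after outgrowth. Sesn2 was higher and Chac1 lower in both doxycycline libraries, and Eif2ak4 was higher at 48 h and lower after outgrowth. The part of this response in the levels of the carriers was not tested.

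Of the 26 mitochondrial carriers, 16 were higher after outgrowth than in uninduced cells and 4 lower (33.6% and 29.5% of measured genes). Their median was 0.17 (log2). At 48 h 8 of the 26 were higher and 10 lower, where 30.1% of measured genes were higher and 30% lower. Their median was 0.023. The most abundant were those of oxidative phosphorylation. Slc25a5, an ADP/ATP exchanger, was at 17.3, 19.3 and 20.9 RPKM, and Slc25a4, another, at 6.34, 7.27 and 7.32. Both were above the uninduced level in each doxycycline library: Slc25a5 1.12-fold at 48 h (1.03 to 1.22) and 1.21-fold after outgrowth (1.11 to 1.32), Slc25a4 1.15-fold (1.06 to 1.24) and 1.16-fold (1.06 to 1.25). Their values are uncertain, since near-identical copies elsewhere in the genome can share their reads, and the deposited length of Slc25a5 is 1238 of a span of 3155 bp. Slc25a3, which imports phosphate, was at 8.68, 8.44 and 9.22 RPKM.

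The paralogs Slc25a12 and Slc25a13 encode the aspartate/glutamate exchangers of the malate-aspartate shuttle. Slc25a13 was at 1.24, 1.63 and 1.07 RPKM, 1.31-fold higher at 48 h (1.28 to 1.35) and 1.16-fold lower after outgrowth (1.13 to 1.19) than in uninduced cells. Slc25a12 was at 0.696, 0.860 and 0.849 RPKM, 1.24-fold (1.18 to 1.29) and 1.22-fold (1.16 to 1.28) above the uninduced level. Both were higher at 48 h, and after outgrowth Slc25a13 was low and Slc25a12 high. Slc25a33 and Slc25a36 carry pyrimidine nucleotides. Slc25a33 was at 0.554, 0.730 and 0.689 RPKM, 1.32-fold higher at 48 h (1.203 to 1.44), and Slc25a36 at 3.69, 4.08 and 3.30 RPKM, 1.11-fold higher at 48 h (1.07 to 1.15) and 1.12-fold lower after outgrowth (1.07 to 1.16).

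The citrate and dicarboxylate carriers were among the lower genes at 48 h. Slc25a1, which exports citrate for fatty acid synthesis, was at 0.665, 0.405 and 0.591 RPKM from 102, 59 and 74 reads. Its 48 h value was 1.64-fold lower, with a wide interval (1.18 to 2.30) that its few reads give. Slc25a10, the dicarboxylate carrier, was at 0.685, 0.518 and 0.775 RPKM, 1.32-fold lower at 48 h (1.11 to 1.57). Slc25a11, which exchanges oxoglutarate for malate, was at 1.21, 1.19 and 1.15 RPKM, with intervals that included no change in all 3 comparisons. Pfn1, whose model ends 4808 bp upstream on the same strand, was at 10.2 to 14.01 RPKM; transcription running on from it was not tested.

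The carriers of ATP-Mg and phosphate differed from each other after outgrowth. Slc25a24 was at 4.001, 3.16 and 4.47 RPKM, 1.27-fold lower at 48 h (1.23 to 1.31) and 1.12-fold higher after outgrowth (1.08 to 1.15). Slc25a25 was at 1.64, 1.43 and 1.47 RPKM, lower in both, by 1.15-fold (1.09 to 1.21) and 1.12-fold (1.06 to 1.18). Slc25a37, the mitochondrial iron importer mitoferrin-1, was at 1.16, 0.940 and 1.34 RPKM, and Slc25a32, a carrier of folate and FAD, at 2.156, 1.95 and 2.69 RPKM. Both were lowest at 48 h and highest after outgrowth, beyond counting error in each comparison. Slc25a28, mitoferrin-2, was at 1.07, 1.17 and 1.32 RPKM from 84 to 87 reads, and its intervals included no change.

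The glutathione carriers Slc25a39 and Slc25a40 were both higher after outgrowth: Slc25a39, at 1.07, 1.196 and 1.58 RPKM from 90.9, 96.3 and 109 reads, by 1.47-fold (1.10 to 1.96), and Slc25a40, at 2.23, 2.11 and 2.57 RPKM, by 1.15-fold (1.10 to 1.21). Slc25a26, which imports S-adenosylmethionine, was at 0.694, 0.759 and 0.740 RPKM, above the uninduced level in both doxycycline libraries. Slc25a30 was at 4.93, 4.75 and 5.31 RPKM, and Slc25a46, an outer membrane protein of mitochondrial shape, at 2.51, 2.62 and 2.80. Slc25a17, the family's peroxisomal member, was at 1.8, 1.71 and 1.75 RPKM, Slc25a44, a carrier of branched-chain amino acids, at 0.843, 0.929 and 0.961, and Slc25a14 at 0.771, 0.902 and 1.003. Slc25a17 was lower at 48 h and Slc25a44 higher after outgrowth beyond counting error, and the intervals of Slc25a14 included no change.

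Slc25a48 had the largest upward ratio of the 97 between the doxycycline libraries. It met the 0.5 RPKM minimum only through its grown-out level, so this rank is a description and supports nothing. It was at 0.529, 0.448 and 0.906 RPKM from 918, 737.9 and 1282.6 reads. Its grown-out value was 1.71-fold above the uninduced one (1.57 to 1.87) and 2.02-fold above the 48 h one (1.84 to 2.22), or 0.94 on the log2 scale with 0.05 added. The ornithine carriers differed: Slc25a15 was at 0.511, 0.504 and 0.661 RPKM, 1.29-fold higher after outgrowth (1.16 to 1.45). Slc25a2 was at 0.671, 0.795 and 0.393 RPKM, from 46.1, 51.8 and 22 reads. Its grown-out value was 1.71-fold below the uninduced one (1.01 to 2.98) and 2.02-fold below the 48 h one (1.21 to 3.51). Taf7, whose model ends 1768 bp upstream of Slc25a2 on the same strand, had the same order of libraries at 1.28, 1.31 and 0.750 RPKM, and the part of its transcription in the reads of Slc25a2 was not tested.

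**Figure D4:**
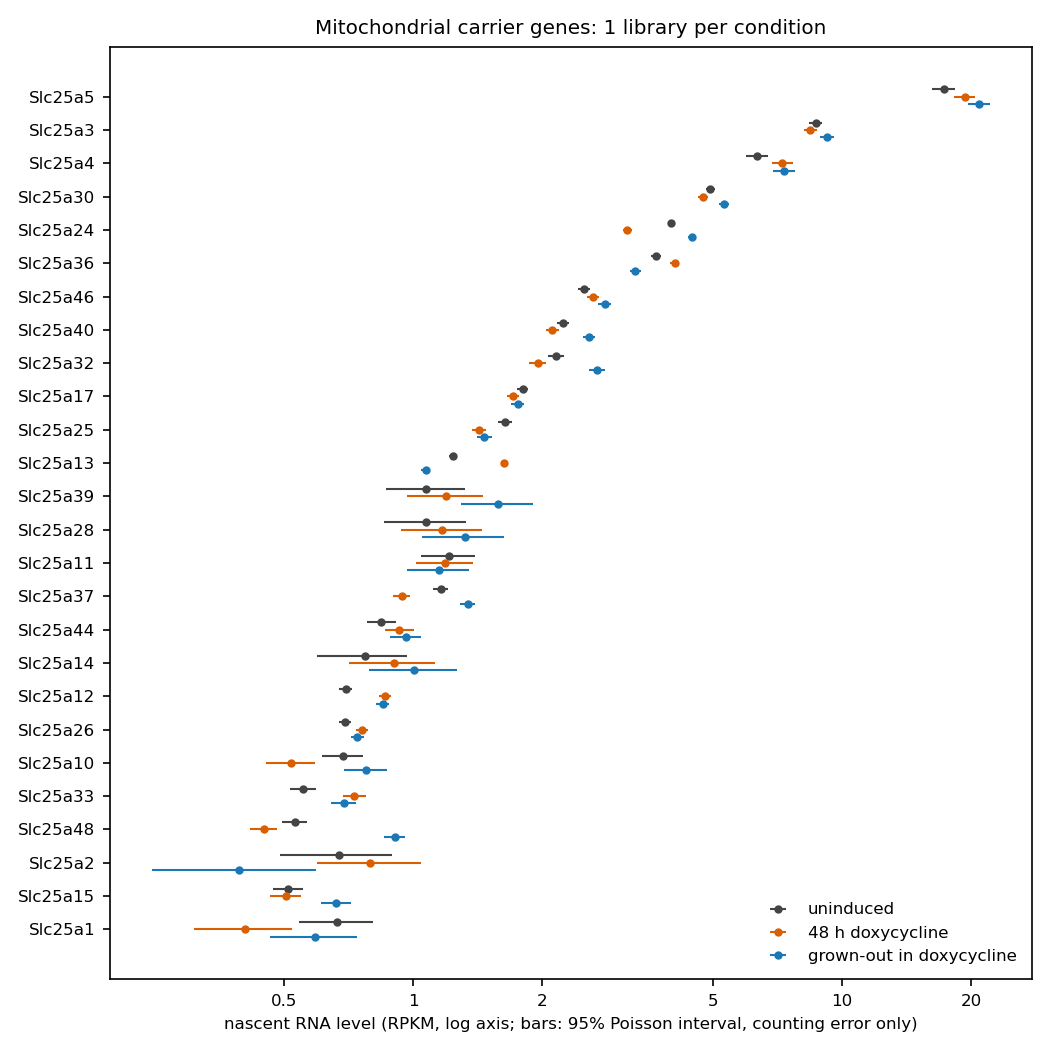
Nascent RNA level (RPKM, log axis) of the 26 mitochondrial carrier genes in each library, ordered by mean level, with exact 95% Poisson intervals that cover counting error only. Intervals are widest for short models with few reads such as Slc25a2 (22 reads after outgrowth), and Slc25a13 and Slc25a48 differ between the doxycycline libraries in opposite directions.

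Carriers of inorganic ions formed the class with the largest share of lower genes at 48 h. Of 13, 11 were lower and 0 higher (30% and 30.1% of measured genes), and the median was -0.18 (log2). After outgrowth 7 were higher than in uninduced cells and 1 lower (33.6% and 29.5% of measured genes), with a median of 0.093. Slc12a2, which imports sodium, potassium and chloride, was at 3.42, 2.62 and 4.02 RPKM, 1.30-fold lower at 48 h (1.27 to 1.34) and 1.18-fold higher after outgrowth (1.15 to 1.21). Slc20a1, a sodium-phosphate carrier, was at 2.99, 2.28 and 3.46 RPKM, 1.31-fold lower at 48 h (1.22 to 1.403), and its paralog Slc20a2 at 1.97, 1.88 and 2.10 RPKM, 1.05-fold lower (1.02 to 1.08). Both had the same order of libraries, with a smaller range for Slc20a2.

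Carriers that set the cell's pH were likewise low at 48 h. Slc4a2, the chloride-bicarbonate exchanger, was at 0.564, 0.436 and 0.708 RPKM, 1.29-fold lower at 48 h (1.12 to 1.49) and 1.25-fold higher after outgrowth (1.10 to 1.43). Slc9a5, a sodium-proton exchanger, was at 0.747, 0.554 and 0.857 RPKM. Both genes were lowest at 48 h and highest after outgrowth. Slc4a7, the sodium bicarbonate carrier with the most reads of all 97 genes, was at 4.12, 3.78 and 4.30 RPKM. Its differences were small and beyond counting error, 1.09-fold lower at 48 h (1.07 to 1.11) and 1.04-fold higher after outgrowth (1.02 to 1.07). Slc9a8, a sodium-proton exchanger of the Golgi, was at 1.29, 1.26 and 1.32 RPKM, with intervals that included no change.

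Slc12a7 and Slc12a4 encode potassium-chloride exporters of the same family as the importer Slc12a2. Slc12a7 was at 1.12, 0.985 and 1.16 RPKM and Slc12a4 at 1.02, 0.893 and 0.957 RPKM, both lower at 48 h and within counting error of the uninduced level after outgrowth. Slc26a2, a sulfate carrier, was at 3.57, 2.98 and 3.52 RPKM, with the same order of libraries as Slc12a4. The sodium pump, whose gradient drives many of these carriers, was listed for comparison. Of 8 subunit genes 3 were measured, 2 lower and 0 higher at 48 h (30% and 30.1% of measured genes). After outgrowth 2 were higher and 1 lower (33.6% and 29.5%). The pump's subunit Atp1b1 was at 3.74, 1.77 and 2.98 RPKM.

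The nucleotide sugar class is the Slc35 family, which supplies glycosylation and sulfation in the secretory pathway. Its counts include carriers of a sulfate donor and genes without a settled substrate, named below. Of 15, 6 were lower and 1 higher at 48 h (30% and 30.1% of measured genes). After outgrowth 7 were higher and 4 lower (33.6% and 29.5%). The class medians (log2) were -0.14 and 0.13. The higher gene at 48 h was Slc35a3, a carrier of UDP-N-acetylglucosamine, at 2.28, 2.76 and 2.66 RPKM, 1.21-fold at 48 h (1.17 to 1.26) and 1.17-fold after outgrowth (1.12 to 1.22). Slc35b4, which carries UDP-xylose and UDP-N-acetylglucosamine, was at 1.47, 1.08 and 1.35 RPKM, 1.37-fold lower at 48 h (1.26 to 1.48). Slc35d1, a carrier of UDP-glucuronic acid, was at 2.02, 1.66 and 2.21 RPKM.

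The sulfate donor carriers Slc35b2 and Slc35b3 were both above the uninduced level after outgrowth. Slc35b2 was at 0.512, 0.592 and 0.887 RPKM from 91.9, 101 and 130 reads, and the grown-out value was 1.73-fold higher than the uninduced one (1.31 to 2.29). Slc35b3 was at 2.47, 2.39 and 2.93 RPKM, 1.19-fold higher (1.13 to 1.24). Slc35a1, which carries CMP-sialic acid, was at 1.17, 1.18 and 1.03 RPKM and was lower after outgrowth, by 1.13-fold (1.05 to 1.23). Slc35d2 was at 0.648, 0.584 and 0.828 RPKM, and Zfp367, whose model ends 3727 bp upstream on the same strand, had the same order at 7.60, 5.72 and 8.65 RPKM. The part of read-through from Zfp367 in the reads of Slc35d2 was not tested.

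The other Slc35 genes, several without a settled substrate, lay between 0.581 and 1.98 RPKM in every library. Slc35e2, at 1.26, 1.03 and 1.35 RPKM, and Slc35e4, at 0.967, 0.801 and 1.11, were lower at 48 h, by 1.22-fold (1.12 to 1.32) and 1.21-fold (1.04 to 1.41). Slc35e3, at 0.649, 0.581 and 0.815 RPKM, and Slc35e1, at 0.925, 0.955 and 1.03, were higher after outgrowth, by 1.25-fold (1.09 to 1.44) and 1.12-fold (1.003 to 1.25). Slc35a5, at 0.739, 0.635 and 0.626 RPKM, was lower in both doxycycline libraries, and Slc35f5, at 1.51, 1.46 and 1.38, after outgrowth. Slc35b1 (1.77, 1.98 and 1.71 RPKM) and Slc35a4 (0.957, 0.793 and 0.882) were within counting error of the uninduced level in both.

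Zinc carriers went both ways, with class medians near 0. Of 12, 2 were higher and 4 lower at 48 h (30.1% and 30% of measured genes). After outgrowth 5 were higher and 2 lower (33.6% and 29.5%). The class medians (log2) were 0.0029 and -0.0052. Slc30a4, an exporter of zinc into vesicles, was at 3.50, 2.62 and 2.45 RPKM, 1.34-fold lower at 48 h (1.27 to 1.41) and 1.43-fold lower after outgrowth (1.35 to 1.504). Its grown-out ratio was the lowest among the 12 zinc carriers above the minimum level. Slc39a10, a plasma membrane importer, was at 2.27, 1.89 and 2.08 RPKM, 1.2-fold (1.15 to 1.25) and 1.09-fold lower (1.05 to 1.14).

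Slc39a13, a zinc carrier of the secretory pathway, was at 0.753, 0.527 and 0.695 RPKM, 1.43-fold lower at 48 h (1.2 to 1.71). Slc30a5 and Slc30a6 encode the partners of a complex that loads zinc into the secretory pathway. Slc30a5 was at 3.02, 2.97 and 3.19 RPKM, and Slc30a6 at 1.24, 1.43 and 1.36 RPKM, 1.15-fold higher at 48 h (1.08 to 1.23). The 2 partners thus did not share the 48 h reading. Of the other importers, Slc39a14 was at 1.05, 1.05 and 1.17 RPKM and Slc39a1 at 1.999, 2.07 and 2.27, both higher after outgrowth, and Slc39a6 at 0.781, 0.678 and 0.864, lower at 48 h and higher after outgrowth. Slc39a9 was at 1.06, 1.153 and 1.07 RPKM. Slc39a7, Slc30a7 and Slc30a9, at a mean of 1.18, 2.03 and 2.37 RPKM, were within counting error in all 3 comparisons. Genes of the zinc response were listed for comparison. The metallothionein Mt1 was at 1.98, 1.63 and 2.56 RPKM, Mt2 at 1.65, 0.878 and 1.21, and their regulator Mtf1 at 0.477, 0.614 and 0.566. By count, 1 of these 3 was higher and 1 lower at 48 h (30.1% and 30% of measured genes). After outgrowth 2 were higher and 0 lower (33.6% and 29.5%).

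The 5 carriers of vitamins, nucleosides and lipids had the highest class median after outgrowth among the classes of over 3 genes, 0.32 on the log2 scale. Of the 5, 4 were higher and 1 lower (33.6% and 29.5% of measured genes). At 48 h 3 were lower and 0 higher (30% and 30.1% of measured genes), with a median of -0.14. Slc23a2, the sodium-coupled vitamin C carrier, was at 2.80, 2.25 and 3.61 RPKM, 1.24-fold lower at 48 h (1.21 to 1.28) and 1.29-fold higher after outgrowth (1.26 to 1.32). Slc29a2, a nucleoside carrier, was at 0.751, 0.700 and 1.05 RPKM, 1.39-fold higher after outgrowth (1.19 to 1.63). Slc19a2, the thiamine carrier, was at 1.06, 0.963 and 1.34 RPKM. Slc33a1, which brings acetyl-CoA into the endoplasmic reticulum, was at 2.89, 2.56 and 3.08 RPKM. The exception was Slc44a2, a choline carrier-like protein, at 1.25, 1.27 and 1.11 RPKM, 1.12-fold lower after outgrowth (1.05 to 1.198).

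Among the small classes, the sugar carriers were Slc5a3 and Slc37a3. Slc5a3, the myo-inositol carrier that responds to osmotic stress, was at 4.41, 3.47 and 4.75 RPKM (over a deposited length of 10768 of 29152 bp), 1.27-fold lower at 48 h (1.195 to 1.35) and 1.08-fold higher after outgrowth (1.02 to 1.14). Slc37a3, of the sugar phosphate exchanger family, was at 1.31, 1.24 and 0.933 RPKM, 1.4-fold lower after outgrowth (1.32 to 1.49). The metal carriers were Slc31a1, the copper importer, at 1.58, 1.54 and 1.47 RPKM, and Slc11a2, a ferrous iron importer, at 1.03, 1.17 and 1.19 RPKM. Slc48a1, a haem carrier, was at 0.834, 0.829 and 0.926 RPKM. Slc11a2 was above the uninduced level in both doxycycline libraries, by 1.14-fold (1.07 to 1.21) and 1.16-fold (1.09 to 1.24).

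In the class of organic acids, bases and peptides, 1 of 6 was higher and 2 lower at 48 h (30.1% and 30% of measured genes). The same counts held after outgrowth (33.6% and 29.5%). Slc22a23, an orphan of the organic ion family, was at 1.41, 1.26 and 1.496 RPKM. Slc10a7 was at 1.29, 1.26 and 1.24 RPKM, and Slc22a13b at 0.627, 0.523 and 0.686. Oxsr1, whose model ends 8974 bp upstream of Slc22a13b on the same strand, was at 3.58, 3.44 and 3.88 RPKM, and its part in those reads was not tested. Slc22a5, the carnitine importer, was at 0.531, 0.535 and 0.531 RPKM, within counting error in all 3 comparisons. The genes that encode no carrier were divided. Slc9a3r1, a scaffold that tethers ion exchangers, was at 0.860, 0.600 and 0.753 RPKM, 1.43-fold lower at 48 h (1.28 to 1.60). Slc4a1ap was at 1.68, 1.89 and 1.49 RPKM, and Slc7a6os, which lies 1734 bp from the end of Slc7a6 on the opposite strand, at 3.71, 3.50 and 4.06 RPKM.

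**Figure D5:**
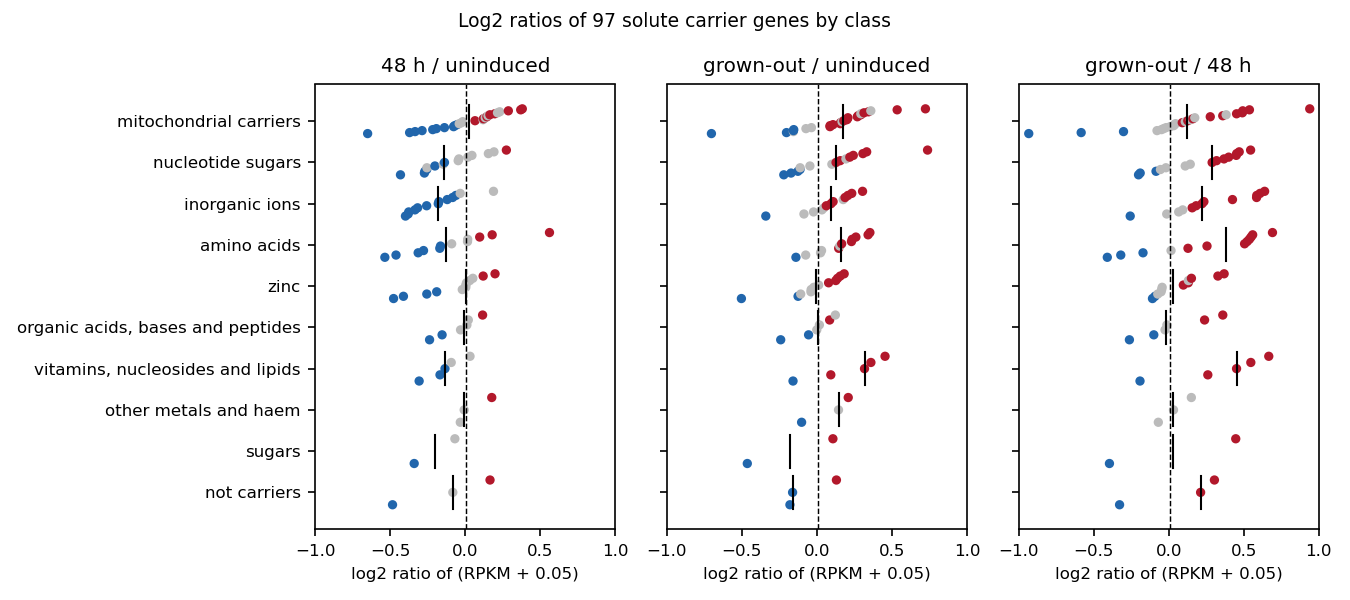
Log2 ratio of (RPKM + 0.05) of each of the 97 genes by class, for the 3 comparisons; red points are higher and blue points lower beyond counting error, grey points have an interval that includes no change, black bars are class medians and the dashed line is the median of the measured genes. Of the 13 ion carriers 11 are blue at 48 h, where 30% of measured genes were lower. Of the 26 mitochondrial carriers 16 are red in grown-out against uninduced cells, where 33.6% of measured genes were higher.

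Transport genes outside the rule were counted in the same way. Of all measured genes, 30.1% were higher and 30% lower at 48 h, and 33.6% were higher and 29.5% lower after outgrowth. Of the 6 solute carriers left out by name, 5 were measured, and 0 were higher and 5 lower at 48 h, with 2 higher and 3 lower after outgrowth. Of 50 ATP-driven Abc transporter genes 13 were measured; 5 were higher and 5 lower at 48 h, and 8 were higher and 2 lower after outgrowth (medians 0.011 and 0.15, log2). The 2 measured organic anion transporters were Slco4a1, at 2.54, 1.46 and 2.76 RPKM, and Slco2a1, at 0.496, 0.484 and 0.876 RPKM. Of 4 measured Mfsd genes 0 were called at 48 h, and 1 was higher and 1 lower after outgrowth.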

How the data were processed

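The deposited estimated counts are, per the file headers, reads per whole gene model, introns included; some are not whole, and they were rounded for intervals. RPKM, as deposited and per the file headers, is scaled by model length and library total. Tools named in the submitters' processing notes are bedtools 2.16.2, TopHat 1.4.1, Bowtie 0.12.8 and CASAVA 1.8.2, beside the build hg19, with no settings given. The models have mouse symbols. The left end of 0 of the 97 models lay within 10 bp of that of the RefSeq gene in GRCm38, and models on chromosome 1 run past its GRCm38 end. The build of the files is thus unsettled and their coordinates are not printed. Gaps between models are from the files. In 7 of the 97 genes the deposited length is shorter than the span.

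Ratios were computed with Python 3.11.15 and scipy 1.17.1 from RPKM, and log2 ratios from RPKM plus 0.05, which understates changes of low genes. "Past" a fold means that the log2 ratio reached it and the 95% interval excluded no change. Measured genes are the 7915 with a mean of at least 0.5 RPKM and a model of at least 300 bp, after 138 models with a repeated name or a span over 3 Mb were left out. Intervals cover counting error only; reads carry no molecular identifiers. The genes and lists were chosen with earlier results of these data known.

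Genes were named by level (the 10 highest; the 2 highest of each class), by ratio (those with the interval bound farthest from no change: 12 each way against the uninduced library, 6 each way between the doxycycline libraries), by opposite sides of the uninduced level (up to 10), past 2-fold, and next to the minimum (3 each side). Other genes named, and the promoters printed, were chosen after their values were seen. Alternatives tried were other scalings (edgeR 4.0.16 TMM, DESeq2 1.42.0 size factors, gene model reads), pseudocount, minimum level, minimum length and fold. Procedures were tested on simulated data. Promoters on chromosome 18 were not printed, and the values of some genes are not reported here.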

Additional observations from a re-analysis of the deposited data

Results flagged for a closer look

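In 2 genes the doxycycline libraries lay on opposite sides of the uninduced library, each by at least 1.2-fold. Slc23a2, the vitamin C carrier, was at 2.80 RPKM uninduced, 2.25 at 48 h and 3.61 after outgrowth. Its log2 ratio of grown-out to 48 h was 0.67. Slc4a2, the chloride-bicarbonate exchanger, was at 0.564, 0.436 and 0.708 RPKM, and its log2 ratio of grown-out to 48 h was 0.64. With 1 library per condition the difference was not tested.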

How the results depend on the processing

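Scaling by edgeR's TMM factors, by DESeq2's size factors or by gene model reads and a minimum length of 3000 bp left the counts over all 97 genes within 1.5 times their value. The scalings moved log2 ratios by -0.022 to 0.042 and turned none of the 97 genes from higher to lower or back, and 84 to 97 kept their side. With a pseudocount of 0.5 RPKM, the medians of grown-out against 48 h fell to 0.28 for amino acid carriers and 0.33 for carriers of vitamins, nucleosides and lipids.

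With a minimum of 2 RPKM (32 genes), 6 were higher and 17 lower at 48 h, 23 and 3 after outgrowth, and 22 and 3 in grown-out against 48 h. The shares of all genes beyond counting error were not computed at this minimum or with none. The counts here and in the next paragraph thus have no background, and the shares at 0.5 RPKM do not stand in for it. The class medians at 48 h became -0.22 (amino acids), -0.34 (sugars), 0.11 (nucleotide sugars, a change of sign), -0.32 (ions), 0.11 (organic acids) and -0.24 (vitamins). After outgrowth sugar carriers (0.11) and non-carriers (0.13) changed sign and nucleotide sugar carriers moved to 0.23. In grown-out against 48 h they became 0.52 (amino acids), 0.45 (sugars), 0.12 (nucleotide sugars) and 0.41 (ions). Such medians rest on 1 to 6 genes.

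With no minimum (311 genes with a read), 28 were higher and 73 lower at 48 h, 66 and 60 after outgrowth, and 70 and 51 in grown-out against 48 h. There 5 and 1 were past 2-fold in the latter comparisons, whose medians over all genes were 0 and 0.0012. At 48 h the medians came close to 0: -0.012 (amino acids), -0.013 (sugars), -0.046 (nucleotide sugars), -0.012 (ions) and -0.018 (vitamins). After outgrowth they were 0 (amino acids) and 0.018 (vitamins), with a change of sign for sugars (0.013), nucleotide sugars (-0.00059), other metals and haem (-0.10) and ions (-0.0047). In grown-out against 48 h they were 0.0073 (amino acids), 0.022 (nucleotide sugars), -0.069 (other metals), 0.018 (vitamins) and, with a change of sign, -0.0022 (ions). At 1.5-fold, 1, 3 and 8 of the 97 were past the threshold at 48 h, after outgrowth and between the doxycycline libraries.

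Depth limits the single genes: the median half-width of a gene's interval was 0.092 to 0.095 on the log2 scale, and differences between cultures are not covered. No paired analysis was possible because each condition has 1 library.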

Other observations

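Below the 0.5 RPKM minimum, 5 solute carrier genes were past 2-fold after outgrowth, all lower than in the uninduced library. They were 2.34% of the 214 solute carrier genes with a read under that minimum, where 1.87% of all 9088 such gene models were past 2-fold downwards and 0.242% upwards. Those described here were named after their values were seen. Slc40a1, the iron exporter ferroportin, had 342 reads uninduced, 182 at 48 h and 77 after outgrowth, a 3.63-fold lower level after outgrowth (95% interval 2.82 to 4.70). Slc44a3, of the choline carrier-like family, had 429, 210 and 30 reads and was 11.7-fold lower (8.06 to 17.5). For both genes the 48 h level, at 0.214 and 0.0596 RPKM, lay between the uninduced level (0.383 and 0.116) and the grown-out one (0.105 and 0.00990).

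Slc39a8 and Slc9a7 were near the uninduced level at 48 h. Slc39a8, an importer of zinc and manganese, had 1117, 1025 and 388 reads and was 2.35-fold lower after outgrowth (2.09 to 2.64). Slc9a7, a sodium-proton exchanger of the Golgi, had 39.8, 40.3 and 9.02 reads and was 3.60-fold lower (1.733 to 8.502). Its grown-out level was also 3.84-fold below that at 48 h (1.82 to 8.96). Their levels are low in all 3 libraries, at most 0.383 RPKM, and each value comes from 1 library.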
